A study of Mus musculus with 8 samples.

Results

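The genes examined here handle iron and haem: Tfrc, Hmox1, Heph, Trf, Fth1, Ftl1, Cp, Slc11a1 and Slc40a1. They were taken by gene symbol from the platform annotation, together with the 3 array control probe sets for the transferrin receptor. Of the 9 genes, 7 had a probe set, and with the controls these made 12 of the 12488 probe sets on the array. For Trf, the gene of transferrin, and Slc40a1, the gene of the iron exporter ferroportin, no probe set carried the symbol, and they were not analysed here. The only probe set for Ftl1 was shared with its pseudogene Ftl1-ps2, so 6 genes entered the test of 6128 genes.

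RNA of mouse epididymal white fat was measured on Affymetrix arrays, with wild type mice and mice carrying a knockout of Ppara (labelled Ppara KO) at 4 points each. PPARα, the product of Ppara, is a nuclear receptor activated by fatty acids. In each genotype there was a control, tissue taken 8 hours after 30 nmol of CL 316243, and tissue taken after 3 days or 6 days at 3 nmol per hour of the same drug. CL 316243 is an agonist of the β3-adrenergic receptor of fat cells, and the 8 hour group differs from the other treated groups in dose as well as in time. Each of these 8 groups was 1 array. The wild type control is described as having no drug. The labels give no strain, sex or age, and do not say how the knockout was made, whether controls received a vehicle or whether animals were pooled.

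Iron reaches most cells bound to transferrin, which the transferrin receptor (Tfrc) takes up, and it is stored inside the shell of ferritin, built from heavy (Fth1) and light (Ftl1) subunits. Haem oxygenase (Hmox1) opens the haem ring and frees its iron, and macrophages use it to recycle iron from red cells. The copper oxidases hephaestin (Heph) and ceruloplasmin (Cp) oxidise iron leaving cells so that transferrin can bind it. Slc11a1, also called Nramp1, moves iron across the membrane of the macrophage phagosome. The stability of Tfrc messenger RNA and the translation of the ferritins are set by iron regulatory proteins, and Hmox1 is a standard target of the oxidative stress factor Nrf2.

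Array values are intensities, and those under a floor of 171 were set to it, and where that leaves only a bound on a difference it is given as "at least". Ppara itself lay between 395 and 1843 on the 4 wild type arrays and between 214 and 336 on the 4 knockout arrays. All 6 tested fat cell markers were above the floor on each array, and their summed intensity ran from 41479 to 113882. The knockout control had a sum of 89492 over 4 epididymis and testis markers, against 816 in the wild type control, and the wild type control had 55294 over 4 pancreas markers, against 2759. The summed 4 blood (erythroid) markers ran from 39496 to 57305. The 3 liver cell markers summed to 5633 on the knockout 3 day array (Alb alone read 4443) and to 513 to 613 on the other 7 arrays. On those 7 arrays 2 or all 3 liver markers were at the floor. So were 3 of the 4 epididymis and testis markers in the wild type control and 1 of the 4 pancreas markers in the knockout control. The ratio of the Gapdh control probe sets (5' over 3'), a measure of intact RNA, was 0.793 in the knockout control and 1.04 to 1.18 on the other arrays. The part of these tissues and of RNA quality in the iron gene values was not tested.

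Heph fell 7.99-fold at 8 hours and rose again by 3 days, and both arrays of each time showed it. Tfrc read highest at 6 days in both genotypes, but its change there did not pass in the test of 6128 genes. In a fit of all probe sets, added after seeing the data, 2 other Tfrc probe sets passed at 6 days. Both calls were lost with any 1 array left out other than the wild type 6 day array, which leaves 1 array at 6 days. Hmox1 and Slc11a1 stood above control at 8 hours and 3 days in both genotypes, and at 6 days the knockout array was high and the wild type array near its control, but over the 8 arrays neither gene passed. Fth1, by its brighter probe set, differed from control by less than its standard error at each time.

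**Figure D1:**
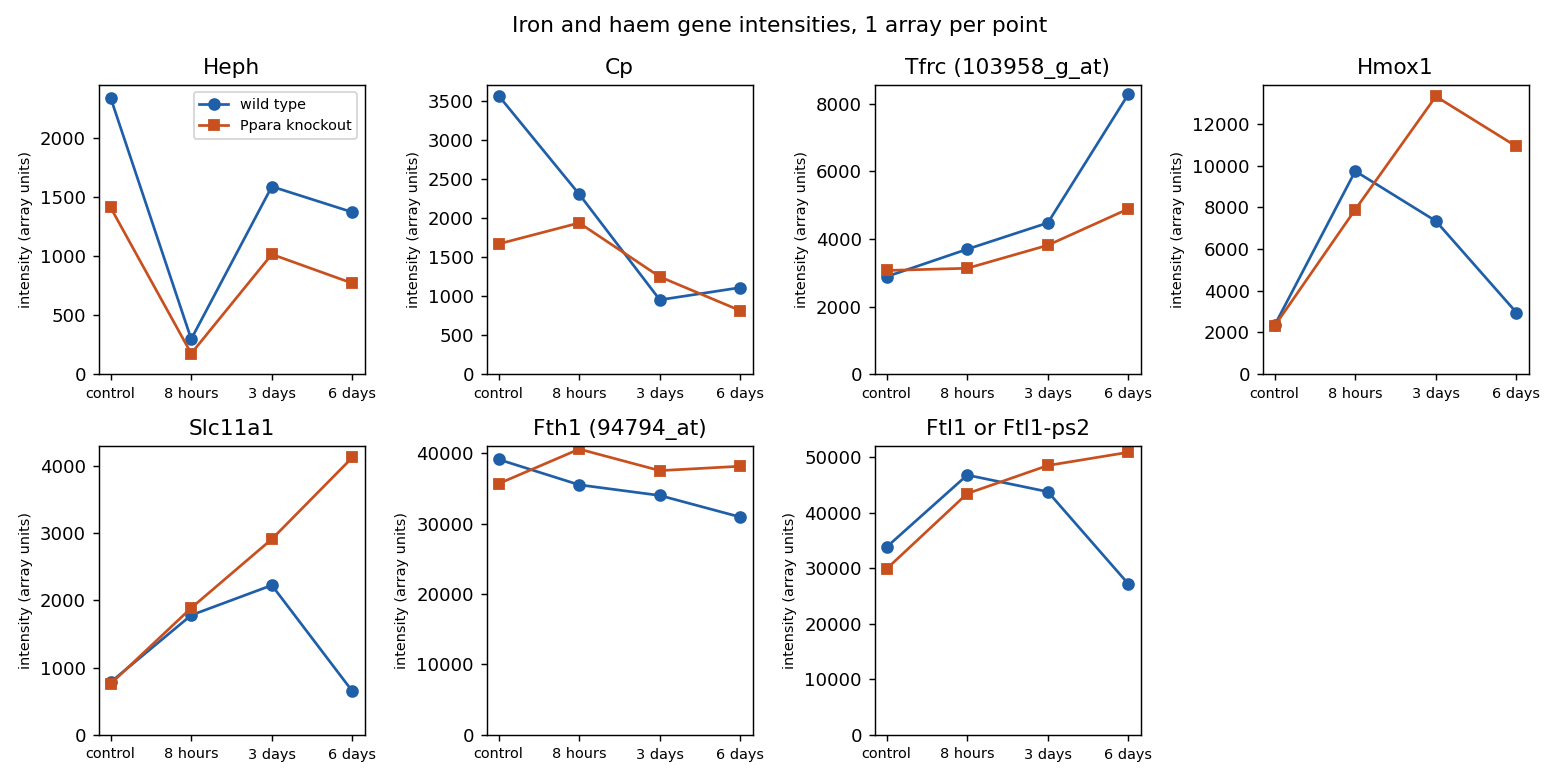
Intensity in array units (vertical axis, from 0) at control, 8 hours, 3 days and 6 days (horizontal axis, not to scale) for the probe set standing for each gene, with circles for wild type and squares for Ppara knockout, 1 array per point. Heph dropped from 2337 to 296 and from 1409 to 174 at 8 hours, and Slc11a1 and Hmox1 separated by genotype at 6 days.

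Heph, the membrane-bound ferroxidase best known for iron export from the intestine, had wild type intensities of 2337 (control), 296 (8 hours), 1586 (3 days) and 1369 (6 days). In the knockout they were 1409, 174, 1013 and 768 in the same order. Both 8 hour arrays lay below the other 6 arrays, with no overlap. The 8 hour arrays were 7.89-fold lower than control in wild type and 8.10-fold lower in the knockout, where 174 is close to the floor.

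In limma's fit of genotype plus time the Heph fall at 8 hours was -3.00 ± 0.17 (log2 change ± standard error, 2 arrays a side), with an adjusted p of 0.00186. Heph was the 1 call among the 6 genes at 8 hours, where 8.29% of all genes tested were called lower, 6.49% higher and 14.8% in either direction. From 8 hours to 3 days it rose by 2.48 ± 0.17 (limma adjusted p 0.00434), again the 1 call of 6, where 1.99% of all genes were called higher and 4.41% in either direction. At 3 days it stood at -0.52 ± 0.17 against control (limma adjusted p 0.162) and at 6 days at -0.82 ± 0.17 (limma adjusted p 0.0926), neither of which passed. The 8 hour fall kept its size with any 1 array left out (-3.01 to -2.98), but its adjusted p was 0.0594 without the knockout 8 hour array. Leaving out an 8 hour array gave the rise to 3 days an adjusted p of 0.0758 (wild type) or 0.122 (knockout), and leaving out a 3 day array gave 0.0951 (wild type) or 0.113 (knockout).

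Heph was lower in the knockout at each of the 4 points. Knockout minus wild type was -0.73 in the controls, -0.77 at 8 hours, -0.65 at 3 days and -0.83 at 6 days on the log2 scale, with 1 array a side. Over 4 arrays a side the difference was -0.74 ± 0.12, with an unadjusted p of 0.000801 and a limma adjusted p of 0.285, above the threshold. None of the 6 genes was called between genotypes, and the share over all genes was also 0%, while 939 genes had an unadjusted p under 0.05.

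The 8 hour fall of Heph went with a fall of fat cell markers. Of the 6 tested, 5 fell at 8 hours (Adipoq, Lep, Lipe, Pparg and Slc2a4), where 8.29% of all genes were called lower. Fabp4 stood at 0.02. The summed intensity of the 6 was 113882 in control and 41479 at 8 hours for wild type, and 103600 and 41863 for the knockout. On each array 0 of the 6 were at the floor. In bulk tissue, fewer cells of a type and less RNA per cell cannot be told apart, and the part of this shift in the Heph value was not tested. By the root mean square difference of centred log2 values over the 8 arrays, the genes with the pattern most like Heph were Abcd2 (0.289) and Slc1a5 (0.301), where Heph itself varied by 1.20 around its mean. These 8 arrays share their labelling and scaling, and the likeness is a description.

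Cp, a ferroxidase made mainly by the liver and secreted into plasma, lay lower at 3 and 6 days than before. Wild type Cp intensities were 3574 (control), 2309 (8 hours), 953 (3 days) and 1111 (6 days). In the knockout they were 1671, 1941, 1249 and 814. All 4 arrays of 3 and 6 days were below all 4 control and 8 hour arrays. The 2 controls differed by 2.14-fold, more than the 8 hour arrays differed from each other.

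The log2 changes of Cp were -0.21 ± 0.35 at 8 hours, -1.16 ± 0.35 at 3 days and -1.36 ± 0.35 at 6 days, with limma adjusted p-values of 0.738, 0.143 and 0.134, so none passed. Without the wild type control the 3 day and 6 day values were -0.67 and -0.86, and the 8 hour value turned to 0.29. Without the knockout 3 day array, which carried the liver markers, the 3 day value was -1.66 (limma adjusted p 0.321). The part of liver RNA in the Cp values was not tested. The drug by genotype term is the difference in response between knockout and wild type, pooled over the treated times. It was 0.99 ± 0.42 for Cp (limma adjusted p 0.523) and -0.02 ± 0.24 for Heph (limma adjusted p 0.980). None of the 6 genes was called against control at 3 days or at 6 days, where 1.14% and 0.832% of all genes were called. By unadjusted p, 4 of the 6 were under 0.05 at 3 days and 4 at 6 days, and over all genes 1323 and 1115 were. The genes most like Cp in pattern were Ptprg (0.205) and Flt4 (0.264), against a spread of 0.669 for Cp itself.

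Tfrc, the receptor that brings in transferrin-bound iron, was measured by 2 ordinary probe sets and by 3 control probe sets that lie toward the 3' end, the middle and the 5' end of the transcript. Its annotated start in RefSeq (GRCm38.p6) lies within a short stretch that holds both ACGTG, the core of a hypoxia response element, and TGACG, a short form of the cyclic AMP response element. The stretch is shown because it places both motifs at the first annotated start of Tfrc, at chr16:32608887-32608916 on the plus strand, with both motifs in capitals.

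Tfrc: taggtgtACGTGcggaaggaagTGACGtag

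Promoter windows of 300 bases (250 before the start and 50 after it) were found for 5 of the 9 genes, in 8 windows. No window was found for Hmox1, Heph, Trf or Slc40a1, so no motif was looked for in them. On either strand ACGTG occurred in both Tfrc windows and in no window of Cp, Fth1, Ftl1 or Slc11a1, and 19.6% of 32851 windows of the RefSeq table hold it. TGACG occurred in both Tfrc windows, which overlap and share this stretch, and in 1 of 2 windows of Fth1, against 20.8% of all windows. The AP-1 motif TGANTCA occurred in 1 of 2 windows of Cp (7.81% of all), and TGACNNNGC, a core of the Nrf2 response element, in none of the 8 (12.4% of all). A match is a run of letters and not a measured binding site.

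The brighter Tfrc probe set, 103958_g_at, stood for the gene. Its wild type intensities were 2886 (control), 3699 (8 hours), 4480 (3 days) and 8293 (6 days), and the knockout arrays gave 3069, 3134, 3817 and 4895. Both 6 day arrays exceeded the other 6 arrays. The change at 6 days was 1.10 ± 0.24 on the log2 scale, and its limma adjusted p of 0.108 missed the threshold. At 8 hours it was 0.19 ± 0.24 and at 3 days 0.47 ± 0.24, with adjusted p-values of 0.637 and 0.317 in limma.

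The other ordinary probe set, 103957_at, started under the floor. Wild type arrays read 100 (control), 227 (8 hours), 681 (3 days) and 2769 (6 days), and knockout arrays 53, 252, 457 and 1253. Values were higher at each later point in both genotypes. A fit of all 8178 probe sets that passed the filter, with or without a single symbol, gave it a test of its own. There the rise at 6 days was at least 3.45 ± 0.34, or 10.9-fold, with a limma adjusted p of 0.0351, where 0.22% of probe sets were called higher. At 3 days it was at least 1.71 ± 0.34 (limma adjusted p 0.0870), and 0.0295 without either 6 day array.

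The control probe set at the 3' end rose at all 3 times. Its intensities were 149, 542, 981 and 3909 in wild type and 139, 409, 761 and 1704 in the knockout, in order of control, 8 hours, 3 days and 6 days. Its log2 changes were at least 1.46 ± 0.30 (8 hours), 2.34 ± 0.30 (3 days) and 3.92 ± 0.30 (6 days). The limma adjusted p-values were 0.0340, 0.0386 and 0.0217, where 6.24%, 0.391% and 0.22% of probe sets were called higher. The middle probe set was above the floor only at 6 days (800 and 334) and passed the filter through those 2 arrays alone, so its being highest there says nothing further. The 5' probe set was above the floor only at 3 days (200 and 214) and at 6 days (1060 and 368).

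The calls of 103957_at and of the 3' control set depend on the arrays in the fit. At 6 days both passed without the wild type 6 day array (0.0266 and 0.0262). For 103957_at the adjusted p was 0.103 without the knockout 6 day array, 0.115 and 0.209 without the wild type and the knockout control, 0.132 without either 3 day array and 0.150 without either 8 hour array. For the 3' control set it was 0.0875 without the knockout 6 day array, 0.0770 and 0.198 without the 2 controls, 0.110 without either 3 day array and 0.150 without either 8 hour array. The 8 hour and 3 day calls of the 3' control set likewise held only without a 6 day array, and otherwise had adjusted p-values of 0.0884 to 0.212 and of 0.108 to 0.422. The 6 day log2 change stayed between 2.94 and 3.95 for 103957_at and between 3.45 and 4.39 for the 3' control set.

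**Figure D2:**
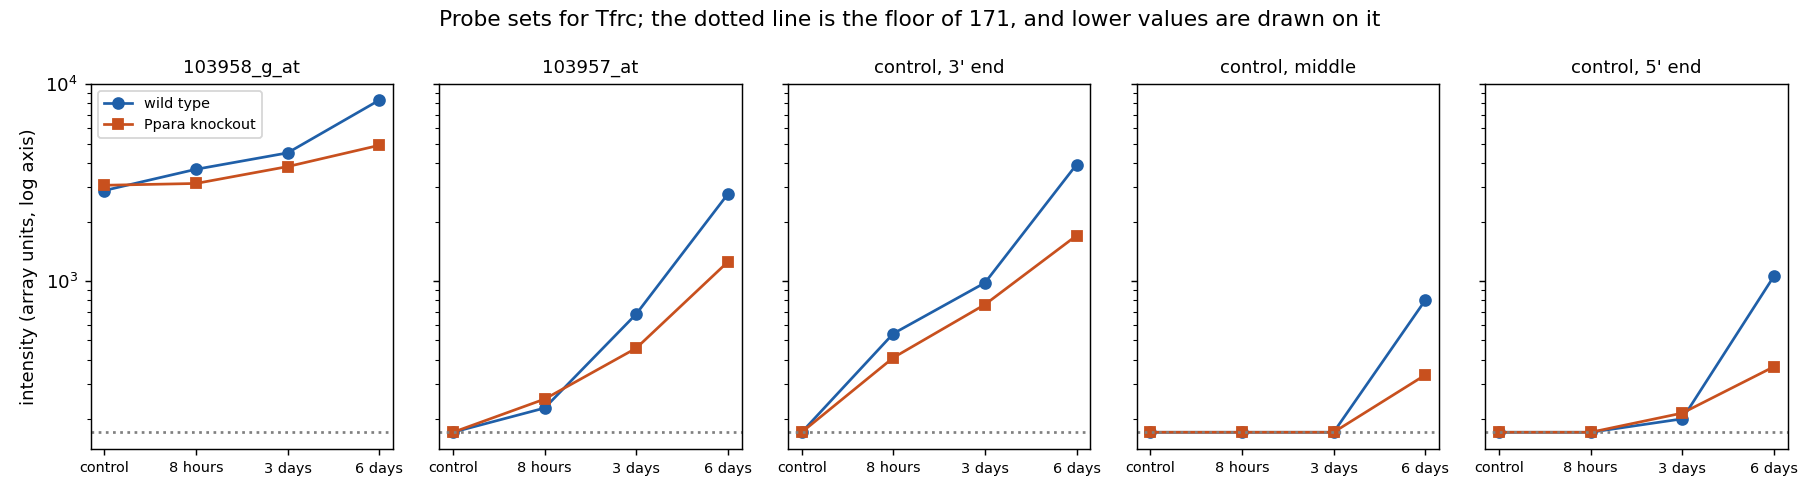
Intensity on a log axis for the 5 probe sets of Tfrc at control, 8 hours, 3 days and 6 days, with circles for wild type and squares for Ppara knockout, 1 array per point. The 6 day arrays are highest in each panel, the wild type 6 day array above the knockout one, and values under the floor of 171 are drawn on it.

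At 6 days the wild type array exceeded the knockout array in all 5 probe sets, by 1.69-fold for 103958_g_at, 2.21-fold for 103957_at and 2.29-fold for the 3' control set. These probe sets measure the same 2 RNA samples. Averaged over the 4 points, knockout minus wild type was -0.29 ± 0.17 for 103958_g_at (limma adjusted p 0.423), and the drug by genotype term was -0.50 ± 0.33 (limma adjusted p 0.637). Summed markers of dividing cells (9 tested) were 4073, 8361, 19164 and 8788 over the wild type arrays and 4254, 8025, 27357 and 25651 over the knockout arrays, in order of time. Of the 9, 4 rose at 3 days and 2 at 6 days, where 1.14% and 0.832% of all genes were called in either direction. The median log2 changes of the 9 were at least 2.66 and 2.03. In the controls, 5 (wild type) and 4 (knockout) of the 9 were at the floor. Their sum was thus above control at the times when Tfrc read higher, while at 6 days it was higher in the knockout and Tfrc was higher in wild type. The part of dividing cells in the Tfrc values was not tested. The genes most like 103958_g_at in pattern were Hadhb (0.116) and Mrpl20 (0.119), against its own spread of 0.464.

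Hmox1, the stress-induced haem oxygenase, had wild type intensities of 2343 (control), 9731 (8 hours), 7338 (3 days) and 2951 (6 days). The knockout had 2309, 7890, 13313 and 10914. All treated arrays were above both controls, and the wild type 6 day array lay nearest to them at 1.26-fold of its own control, against 4.73-fold in the knockout.

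The log2 changes of Hmox1 were 1.91 ± 0.52 (8 hours), 2.09 ± 0.52 (3 days) and 1.29 ± 0.52 (6 days). The limma adjusted p-values were 0.0618, 0.108 and 0.271, so none passed over all 8 arrays. The standard errors hold any genotype difference in response, such as the gap at 6 days. Without either 6 day array, which leaves the other one fitted exactly, the 8 hour and 3 day changes kept their size and had adjusted p-values of 0.0208 and 0.0271. With 1 of the other arrays left out, Hmox1 passed at no time. Most like Hmox1 in pattern were Dok2 (0.202) and Selplg (0.223), against a spread of 0.972.

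Slc11a1, the phagosomal metal transporter, had wild type intensities of 784 (control), 1780 (8 hours), 2226 (3 days) and 648 (6 days). The knockout had 759, 1888, 2912 and 4128. The genotypes lay close together in the controls and at 8 hours, and stood furthest apart at 6 days, where the wild type array was below its control. Slc11a1 in the knockout was 2.49-fold, 3.84-fold and 5.44-fold of its control in order of time.

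The log2 changes of Slc11a1 were 1.25 ± 0.66 at 8 hours, 1.72 ± 0.66 at 3 days and 1.08 ± 0.66 at 6 days, with limma adjusted p-values of 0.256, 0.209 and 0.433, and none passed. Without either 6 day array the adjusted p was 0.0181 at 8 hours and 0.0158 at 3 days. Without the wild type 6 day array the 6 day change was 2.35, and without the knockout 6 day array it was -0.18. Each of these rests on 1 array at 6 days. The genes most like it in pattern were Samhd1 (0.143) and Tlr6 (0.165), against a spread of 0.924.

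At 6 days the knockout array exceeded the wild type array by 3.70-fold for Hmox1 and 6.37-fold for Slc11a1. These were the 2 of 6 genes at 2-fold or more higher in the knockout at that point, where 9.33% of all genes were, with 1 array a side and no test. At 3 days the ratios were 1.81 and 1.31. The drug by genotype term was 0.84 ± 0.90 for Hmox1 and 1.09 ± 1.15 for Slc11a1, with limma adjusted p-values of 0.748 and 0.743. It pools the treated times and does not test 6 days alone. No gene of the 6128 passed that test, and 624 had an unadjusted p under 0.05.

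Macrophage markers were also higher on treated arrays. The summed intensity of the 10 tested markers was 17798 (control), 52755 (8 hours), 73236 (3 days) and 27333 (6 days) in wild type. In the knockout it was 18862, 56642, 100376 and 130012. Slc11a1 went up and down with the sum at each step in both genotypes. Hmox1 did not: it was lower at 3 days than at 8 hours in wild type, and lower at 6 days than at 3 days in the knockout, while the sum was higher. Adgre1, a surface receptor by which mouse macrophages are defined, read 388, 851, 4336 and 1019 in wild type and 327, 1261, 6392 and 10264 in the knockout. Msr1 was under the floor in both controls and on the wild type 6 day array, and Itgam in the knockout control. Of the 10 markers, 2 rose at 8 hours (Cd14 and Mpeg1), where 6.49% of all genes were called higher. At 3 and 6 days 0 passed in limma's fit, where 1.14% and 0.832% of all genes were called in either direction. Of 7 tested neutrophil markers 5 rose at 8 hours, while Camp (0.53) and Elane (-0.75) did not pass. The summed intensities of the 7 stood at 1574 and 1558 in the 2 controls, with 4 (wild type) and 5 (knockout) of the 7 at the floor. The sums were 24825 and 33085 at 8 hours, and 3134 or below at 3 and 6 days. The part of these cells in the Hmox1 and Slc11a1 values, or in those of the ferritin light chain, was not tested.

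**Figure D3:**
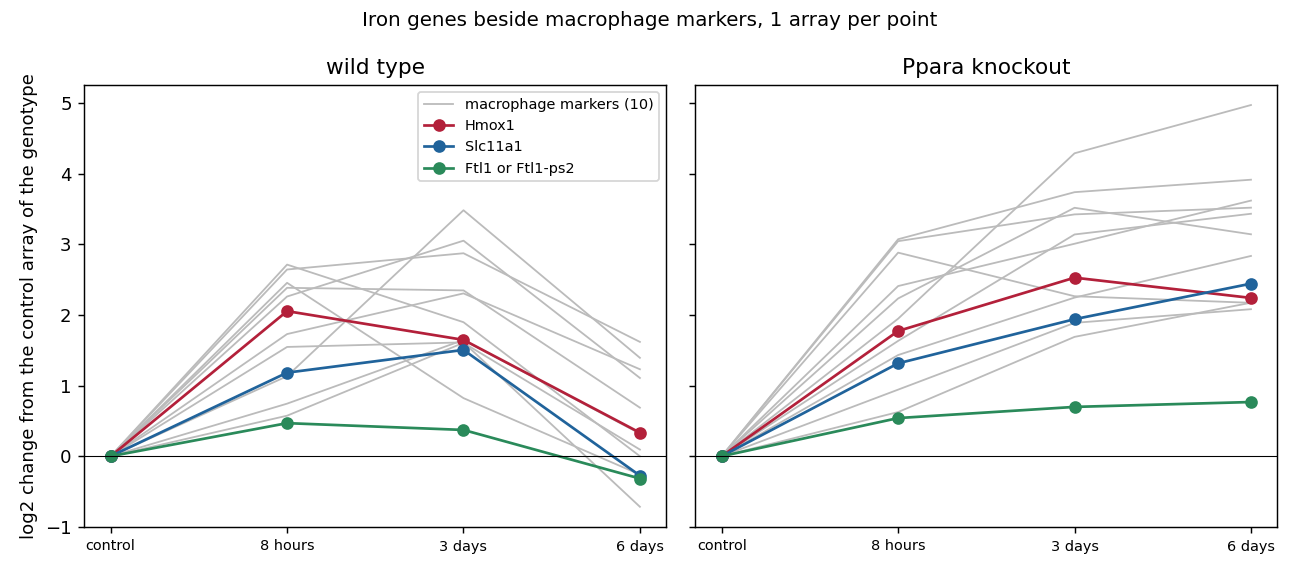
Log2 change from the control array of the same genotype at 8 hours, 3 days and 6 days for Hmox1, Slc11a1 and the shared Ftl1 probe set (coloured) and for 10 macrophage markers (grey), 1 array per point, wild type on the left and Ppara knockout on the right. Slc11a1 ended at -0.28 in wild type and 2.44 in the knockout, and each of the grey lines was also lower at 6 days in wild type than in the knockout.

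None of the ferritin probe sets passed the test at any time. Fth1, the subunit that oxidises iron on entry, had 39108, 35498, 33990 and 30918 in wild type and 35664, 40575, 37516 and 38142 in the knockout by probe set 94794_at, in order of time. Its largest fitted change was -0.12 ± 0.19 at 6 days (limma adjusted p 0.779), within its standard error. The second Fth1 probe set, 161913_r_at, ran from 7227 to 8819 over the 8 arrays. Its changes were 0.05 ± 0.17 at 8 hours, 0.19 ± 0.17 at 3 days and 0.13 ± 0.17 at 6 days. At 3 days and at 6 days they had the opposite sign to those of 94794_at (-0.065 and -0.12). The genes most like 94794_at in pattern were Uimc1 (0.054) and Tnpo1 (0.060), where its own spread was only 0.117.

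The probe set shared by Ftl1, the ferritin light chain, and Ftl1-ps2 had wild type intensities of 33858 (control), 46837 (8 hours), 43823 (3 days) and 27187 (6 days). The knockout had 29925, 43495, 48557 and 50939. As with Hmox1 and Slc11a1, the wild type 6 day array was the low one among treated arrays and the knockout 6 day array was high, 1.87-fold above it. The macrophage marker sum was likewise lowest among treated arrays there. The log2 changes over both genotypes were 0.50 ± 0.30, 0.54 ± 0.30 and 0.23 ± 0.30 in order of time, with adjusted p-values of 0.314, 0.373 and 0.746 in limma's fit of all probe sets. Signal of the gene and its pseudogene cannot be told apart here.

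**Figure D4:**
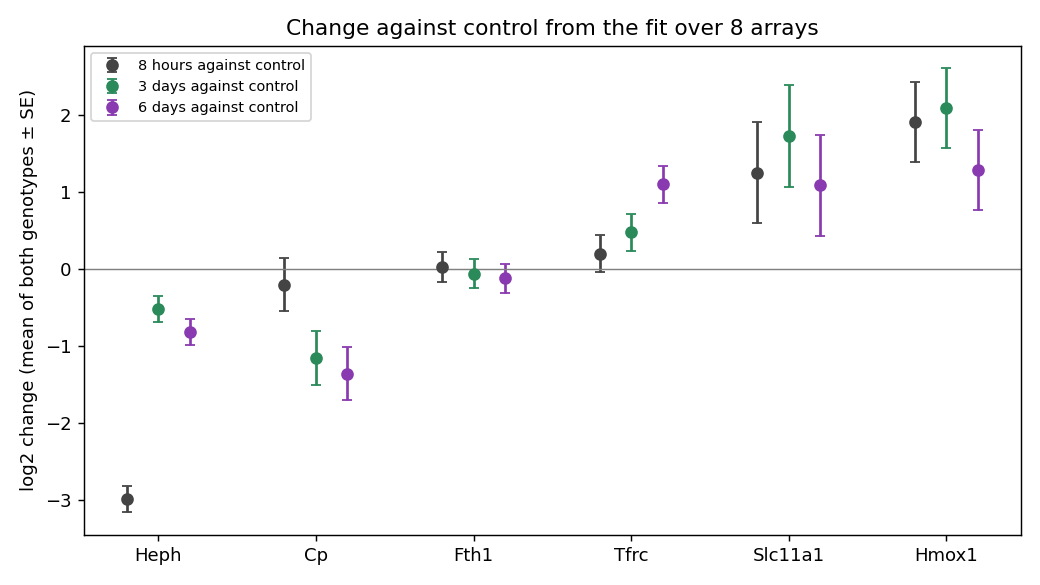
Log2 change against control (mean of both genotypes, bars show the standard error from limma's fit over 8 arrays) at 8 hours, 3 days and 6 days for the 6 genes tested. Heph at 8 hours lies at -3.00, below all other values shown, and the widest bars are those of Slc11a1 (0.66) and Hmox1 (0.52).

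Over the 6 genes the median log2 change was 0.11 at 8 hours, 0.20 at 3 days and 0.48 at 6 days, beside -0.02, -0.03 and -0.004 over all genes tested. The genes above and below 0 numbered 4 and 2 at 8 hours, and 3 and 3 at 3 days and at 6 days. From 3 to 6 days none of the 6 was called, and 0% of all genes were (108 had an unadjusted p under 0.05). Tfrc was the 1 gene of the 6 above 0 in that step, at 0.62 ± 0.24 (unadjusted p 0.0414, limma adjusted p 1).

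Other genes of iron and haem handling were followed through 5 lists with 83 genes, of which 49 were tested. At 8 hours 4 rose and 5 fell, at 3 days and at 6 days 1 fell, and the other genes did not pass. Over all genes tested, the called shares were 6.49% higher and 8.29% lower at 8 hours, and 0.702% and 0.604% lower at 3 and 6 days. These calls rest on few arrays. At 8 hours all 9 held when a 6 day array was left out, 3 when a 3 day array or the control of wild type was, and 1 (Srxn1) when the 8 hour array of wild type was. None of the 9 held without the 8 hour array or the control of the knockout.

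In uptake, transport and regulation, 14 genes were tested and 2 fell at 8 hours. Bmp6, which signals iron load to the liver hormone hepcidin, had log2 changes of -1.25 ± 0.22 at 8 hours, -1.81 ± 0.22 at 3 days and -1.59 ± 0.22 at 6 days. Its limma adjusted p-values were 0.0201, 0.0299 and 0.0420, and the later 2 values are lower limits on the fall. Its intensities were 697, 317, 81 and 231 in wild type and 516, 200, 131 and 100 in the knockout. The 3 day call of Bmp6 held only without a 6 day array. Its 6 day call held only without the wild type 6 day array, which leaves 1 array at 6 days. Hfe, the haemochromatosis gene, whose protein binds the transferrin receptor, fell by 1.25 ± 0.22 at 8 hours (limma adjusted p 0.0219) and stood at 0.63 ± 0.22 at 3 days.

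Lcn2, which binds bacterial iron carriers, read 537, 10393, 4054 and 2244 in wild type and 16051, 13376, 2934 and 1346 in the knockout, in order of time. Its 8 hour change over both genotypes, 2.01 ± 1.33, did not pass (limma adjusted p 0.355). The knockout control is also the array with the high epididymal sum, and the part of that tissue in the Lcn2 values was not tested. The zinc and iron importer Slc39a8 stood at -1.51 ± 0.28 at 3 days (limma adjusted p 0.0713). Of the iron regulatory proteins, Aco1 stood at -0.54 ± 0.22, a bound with both arrays under the floor, and Ireb2 at 0.30 ± 0.22 at 8 hours, and neither passed.

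In haem synthesis 0 of 8 tested genes passed against control at any time. Alas1, the rate-limiting first enzyme outside red cells, read 7744, 8960, 14564 and 20148 in wild type and 6944, 8027, 9923 and 8767 in the knockout. Its wild type values were higher at each later point, and its 6 day change was 0.86 ± 0.30 (limma adjusted p 0.216). Alad, the second enzyme, stood at -1.39 ± 0.37 (limma adjusted p 0.0604) and Urod at -1.07 ± 0.40 (limma adjusted p 0.126) at 8 hours. Alad stood at -0.80 ± 0.37 at 3 days.

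In haem breakdown, transport and scavenging, 1 of 9 genes passed. Pgrmc1, a haem-binding membrane protein, fell by 1.07 ± 0.25 at 8 hours (limma adjusted p 0.0402). Bach1, the haem-sensing repressor of Hmox1, read 947, 1631, 1036 and 366 in wild type and 677, 2206, 1540 and 1964 in the knockout, and its 8 hour change of 1.24 ± 0.63 did not pass (limma adjusted p 0.237). It was thus also low on the wild type 6 day array and high on the knockout one. Blvra, which reduces the biliverdin that haem oxygenase makes, stood at 0.76 ± 0.19 at 3 days (limma adjusted p 0.103). The haem scavenger Hpx was under the floor in both controls and read 588 on the knockout 3 day array, the array with the highest liver marker sum (5633).

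In iron-sulphur cluster assembly 2 of 9 genes rose at 8 hours. They were the assembly factor Nubp1 (1.21 ± 0.27, limma adjusted p 0.0358) and the mitochondrial chaperone Hspa9 (0.96 ± 0.19, limma adjusted p 0.0266). At 3 days the largest values in the list were 0.54 ± 0.37 for the scaffold Iscu and 0.52 ± 0.27 for Nubp1, and neither passed.

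Among 9 tested targets of Nrf2, 2 rose and 2 fell at 8 hours. Srxn1, which repairs oxidised peroxiredoxin, rose by 2.76 ± 0.24 (limma adjusted p 0.00415), with 291 and 487 in the 2 controls and 1727 and 3766 at 8 hours. Txnrd1, the thioredoxin reductase, rose by 1.26 ± 0.18 (limma adjusted p 0.0127). The glutathione transferase Gstm1 fell by 1.36 ± 0.27 and the NADPH-making enzyme Me1 by 0.83 ± 0.20, with limma adjusted p-values of 0.0273 and 0.0423. At 3 days Gstm1 stood at -1.56 ± 0.27 (limma adjusted p 0.0606) and Gsta4 at -0.70 ± 0.36, a bound with both arrays under the floor. At 3 days Srxn1 read 517 and 682, and Hmox1 read 7338 and 13313. The part of Nrf2 in the Hmox1 values was not tested.

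**Figure D5:**
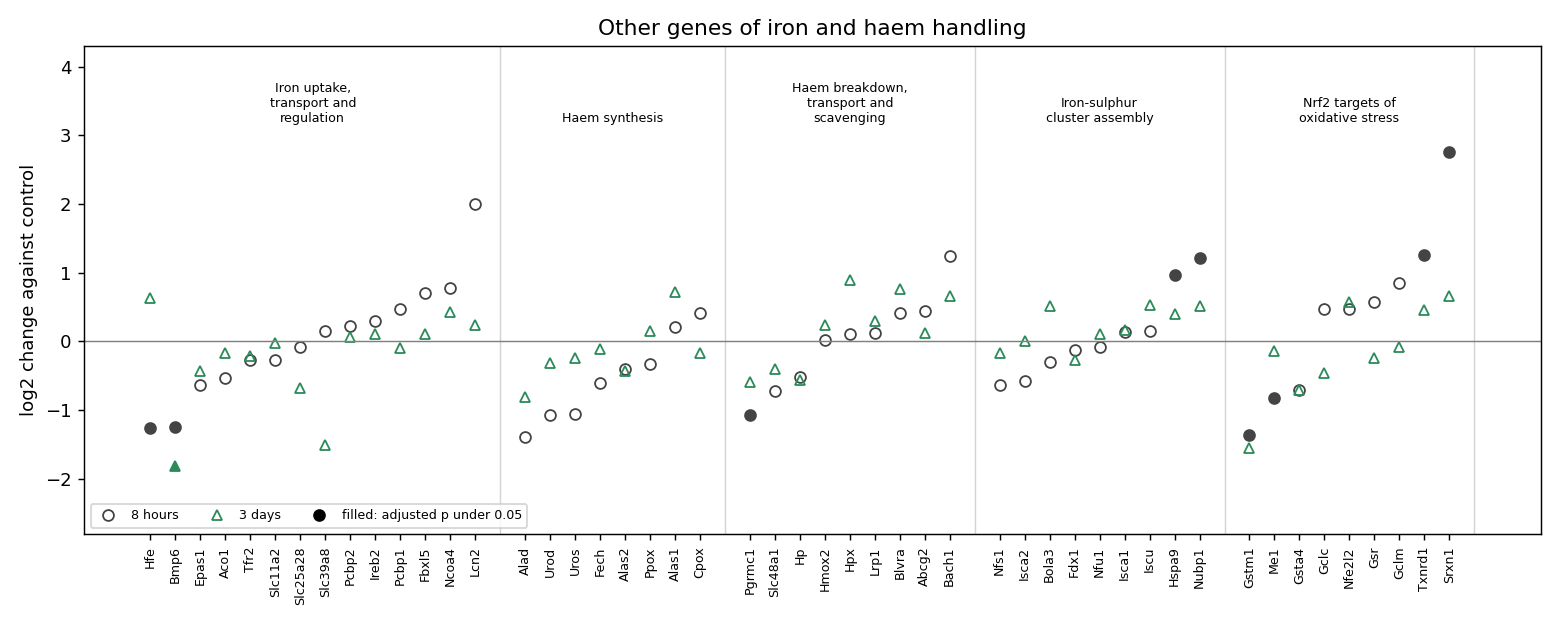
Log2 change against control at 8 hours (circles) and 3 days (triangles) for the 49 tested genes of 5 lists, with filled symbols for a limma adjusted p under 0.05. The filled circles above 0 are Nubp1, Hspa9, Txnrd1 and Srxn1, those below 0 are Hfe, Bmp6, Pgrmc1, Gstm1 and Me1, and Bmp6 is the 1 filled triangle.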

How the data were processed

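The authors deposited whole-number probe set intensities on a linear scale, with 11.9% below 0. The sources used here do not give the software, background correction or normalization. Array medians were 320 to 322, and values were kept as deposited. Values under 171, the 40th percentile outside the array controls, were set to 171 before log2. Probe sets with 1 gene symbol and at least 2 arrays over the floor were tested (7346), the brightest for each of 6128 genes. RefSeq tables of GRCm38.p6 updated the symbols of 10839 probe sets and gave the promoters. 0 columns were left unused.

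limma 3.58.1 (R 4.3.3) fitted genotype plus time over 8 arrays (3 residual degrees of freedom). A second fit added drug by genotype (2 residual degrees of freedom). P-values were adjusted by Benjamini-Hochberg over all genes, with a threshold of 0.05. They reflect only how these arrays differ, which may be technical, and the number of arrays limits the precision. The fit was tested on simulated data with normal noise and no floor, genotype difference or other tissue. That test cannot show how far the calls on these arrays hold. A fit of all 8178 probe sets passing the filter, for the control and Ftl1 probe sets, was added after seeing the data.

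Genes and lists were chosen with earlier results of these data known. Named were each iron gene with its probe sets, pathway genes that passed, the 2 largest changes of each list at 8 hours and 3 days, and the 2 genes nearest in pattern. Aco1, Ireb2 and Alas1 at 6 days were chosen after their values were seen.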

Additional observations from a re-analysis of the deposited data

Results flagged for a closer look

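Fth1 by probe set 94794_at was lower than control on all 3 treated wild type arrays and higher on all 3 treated knockout arrays. The log2 changes were -0.14 at 8 hours, -0.20 at 3 days and -0.34 at 6 days in wild type, and 0.19, 0.07 and 0.10 in the knockout. Each is set against 1 control array of its genotype. The difference in response between genotypes was 0.35 ± 0.24 in limma's fit (adjusted p 0.647), and the separate times were not tested. By the other Fth1 probe set, 161913_r_at, the treated arrays of both genotypes lay above their own control, from 7836 to 8819 against 7405 in wild type and from 7305 to 8018 against 7227 in the knockout.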

How the results depend on the processing

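Of 606 values of the 6 genes under an alternative, 588 stayed on the same side of the threshold, 5 lost it and 13 gained it, and 16 uncalled values changed sign. With 1 array left out, the iron genes called numbered 0 to 3 at 8 hours, 0 to 2 at 3 days, 0 to 1 at 6 days and 0 to 1 from 8 hours to 3 days. Leaving out both 6 day arrays gave 3 at 8 hours (Heph, Hmox1 and Slc11a1) and 2 at 3 days (Hmox1 and Slc11a1). Fitting all single-symbol probe sets gave 1 at 6 days (Tfrc), and fitting all probe sets gave 2 at 8 hours, 1 at 3 days and 1 at 6 days. Over all genes, 906, 70, 51 and 270 were called at 8 hours, 3 days, 6 days and from 8 hours to 3 days. With 1 array left out these ran from 0 to 1096, 0 to 442, 0 to 286 and 0 to 398. They were 603, 32, 11 and 126 with the floor at the 25th percentile, and 222, 0, 0 and 35 without the filter on dim probe sets, where 177 were called for drug by genotype. With an intensity trend and robust prior they were 153 at 3 days and 128 at 6 days, and without both 6 day arrays 442 at 3 days. The cause was not tested. Drug by genotype could not be fitted without a control. Each group was 1 array, so there were no replicates to pair, and the labels give no replicate numbers.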
